A study of Homo sapiens with 2 samples.

Results

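The genes described here encode the proteins of the cytosolic ribosome. They were taken by name from the array: gene symbols made of RPL or RPS, digits and an optional A, X or L and digit, together with RPLP0, RPLP1, RPLP2 and RPSA, without the RPS6K kinases and without pseudogene names. This gave 84 genes, 52 of the large subunit and 32 of the small subunit, among 27265 gene names, and 159 of 34127 gene probes. Of the 84 genes, 82 were measured, that is, had a probe well above background on both arrays in at least 1 population. The exceptions were RPL27A and RPL39L, and 13720 genes in all were measured.

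RNA came from RMG1 cells, an established ovarian clear cell adenocarcinoma line that was sorted with the ALDEFLUOR assay. This assay separates cells by aldehyde dehydrogenase activity into ALDH+ cells, used as cancer stem-like or cancer-initiating cells (CSCs/CICs), and ALDH- cells. The labels name no other treatment or genetic change for either population. The labels and the results name RMG1, whereas AMOC2 is the line named in the methods. RNA of 1 sort of each population was labeled with Cy5 and Cy3 and hybridized to 2 two-color arrays, with ALDH+ cells in Cy5 on array 1 and in Cy3 on array 2. The same 2 RNA extracts were on both arrays. Hence n was 1 for each population, the populations could not be tested against each other, and every SD given below is the technical SD of the 2 arrays. All ratios are log2 ratios of ALDH+ over ALDH- cells, where 0 is no difference and 1 is 2-fold. They were background-corrected and normalized by loess, which sets the bulk of genes at each signal to a ratio of 0. A ratio is therefore relative to the other genes on the array, and fewer cells of a type cannot be told apart from less RNA per cell.

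The ribosome is built of a small subunit, which binds mRNA and reads its codons, and a large subunit, which joins amino acids and releases the chain through an exit tunnel. Its proteins are made in nearly equal amounts, and their mRNAs are among the most abundant of a growing cell. Most of these mRNAs begin with a terminal oligopyrimidine (TOP) motif, through which mTOR signaling sets how well they are translated, so that protein output can change without a change in mRNA.

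The level of the ribosomal protein mRNAs relative to other genes depended on the normalization. With median centring in place of loess, their median ratio was 0.57 and all 82 genes were above 0. After loess the median ratio of the 82 genes was 0.09, with quartiles of -0.01 and 0.17 and a range from -0.28 (RPS21) to 0.66 (RPL36). Over all 13720 genes the median was 0.00, with quartiles of -0.19 and 0.15. On array 1 the median of the ribosomal protein genes was 0.23, with 74 of 82 above 0, and on array 2 it was -0.05, with 33 above 0. The medians of the arrays lay on different sides of 0, with an SD of 0.19. With the brightest probe of each gene after loess, the sign of the group was thus not the same in both dye orders. Other choices of probe gave medians above 0 on array 1 and array 2: 0.28 and 0.03 with the mean over probes, and 0.31 and 0.08 with the dimmest probe.

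Of the 82 genes, 30 (36.6%) were higher in ALDH+ cells on both arrays, beside a background of 33.7% of all genes. Another 5 genes, RPL6, RPL17, RPL27, RPS6 and RPS7, were lower on both arrays (6.1%), beside a background of 36.1%. The share higher was near that of all genes and the share lower was below it. The other 47 genes (57.3%) had opposite signs on the arrays, beside 30.3% of all genes, and 44 of them were above 0 on array 1 only. The mean ratio of 3 genes passed 1.5-fold higher in ALDH+ cells (3.66%, background 1.51%), and that of 0 genes passed 1.5-fold lower (background 4.59%). The mean ratio of 0 genes passed 2-fold in either direction, beside 0.211% of all genes higher and 0.707% lower. No test stands behind these counts, since each population had 1 sample. Across the 82 genes array 1 and array 2 correlated with Pearson's r = 0.34 and Spearman's rho = 0.25, against 0.69 and 0.59 across all genes, as a description over genes that share the same 2 arrays.

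**Figure D1:**
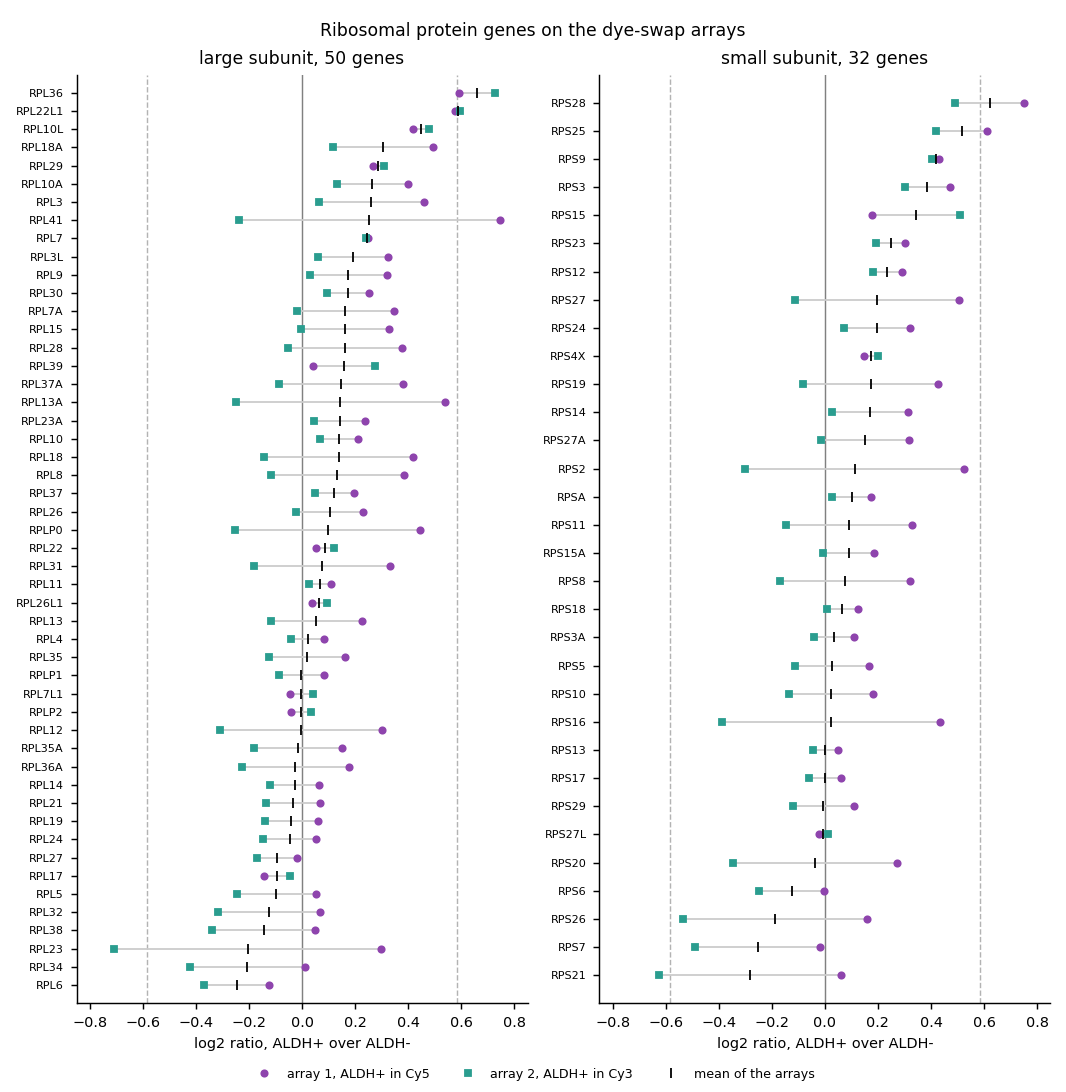
Log2 ratio of ALDH+ over ALDH- cells (x axis) for the 50 measured genes of the large subunit and the 32 of the small subunit, ordered by mean ratio, with array 1 as circles, array 2 as squares, the mean as a tick and dashed lines at 1.5-fold. RPL36 has the highest mean at 0.66 and RPS21 the lowest at -0.28, and the circles lie above 0 for 74 genes while the squares do for 33.

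**Figure D2:**
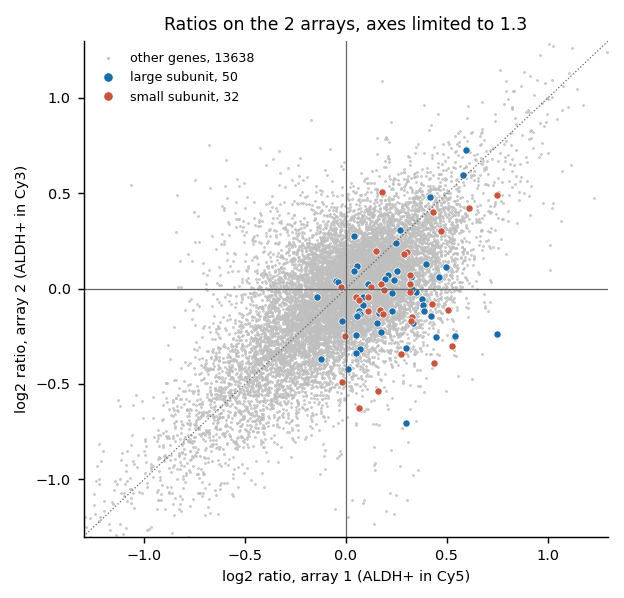
Log2 ratio on array 1 (x axis) against that on array 2 (y axis), with each ribosomal protein gene as a colored point and each other gene as a gray point. Of the 82 ribosomal protein genes, 44 lie in the lower right, above 0 on array 1 and not on array 2, and 3 lie in the upper left.

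RPL36, RPS28 and RPL22L1 were the genes past 1.5-fold. RPL36, a protein of the large subunit, had the highest mean ratio. On array 1 its spot signal was 44040 in ALDH+ cells (Cy5) and 10051 in ALDH- cells (Cy3), and on array 2 it was 20933 in ALDH+ cells (Cy3) and 22036 in ALDH- cells (Cy5). These are signals before normalization. The Cy5 signal was the brighter on both arrays for 81 of the 82 genes, and that of RPL36 was far brighter on array 1 and barely brighter on array 2. After loess the ratios of RPL36 were 0.59 and 0.73, with a mean of 0.66 (1.58-fold, SD 0.10). Both arrays placed RPL36 above 0, but it was chosen as the highest of the 82 genes. Its mean ratio was 1.04 with median centring, a change beyond the SD of the arrays.

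RPS28, a small protein of the mRNA exit region of the small subunit, followed. Its signals on array 1 were 132670 in ALDH+ and 23564 in ALDH- cells, and on array 2 they were 58142 and 72485. The ratios were 0.75 and 0.49, with a mean of 0.62 (1.54-fold, SD 0.18). RPL22L1 is a paralogue that can stand in for RPL22 in the large subunit. Its signals were 23104 in ALDH+ and 5819 in ALDH- cells on array 1, and 11154 and 12791 on array 2. Its ratios, 0.58 and 0.60, were the closest pair of the 3 genes, and the mean of 0.59 (1.502-fold, SD 0.01) lay just past 1.5-fold.

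The next 5 genes were RPS25 (0.52), RPL10L (0.45), RPS9 (0.42), RPS3 (0.39) and RPS15 (0.34). RPS25, a protein of the head of the small subunit that is needed by some viral internal ribosome entry sites, had ratios of 0.61 and 0.42. RPS3, which lines the mRNA entry channel and also acts in DNA repair, had 0.47 and 0.30. RPS9 had 0.43 and 0.40, and RPS15, which reaches toward the decoding center, had 0.18 and 0.51. All 8 of the highest genes were above 0 on both arrays, but they were chosen for their mean.

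The lowest 8 genes were RPS21 (-0.28), RPS7 (-0.25), RPL6 (-0.25), RPL34 (-0.21), RPL23 (-0.20), RPS26 (-0.19), RPL38 (-0.14) and RPS6 (-0.13). RPS21 had signals of 201393 in ALDH+ and 52655 in ALDH- cells on array 1, and of 66669 and 180656 on array 2. Its ratios of 0.06 and -0.62 (SD 0.49) disagreed by more than their mean. RPL23 had ratios of 0.30 and -0.71 (SD 0.71). RPS26, which contacts mRNA at the exit site, had 0.16 and -0.54 by its brightest probe, while its mean ratio was 0.255 with its dimmest. Array 2 thus carried the low means of these genes by their brightest probes. RPL6 and RPS7 were lower on both arrays, with -0.12 and -0.37 for RPL6 and with -0.02 and -0.49 for RPS7. RPS6, the substrate of the S6 kinases, had -0.00 and -0.25. None of the lowest 8 had an SD under its distance from 0 apart from RPL6, whose SD was 0.17.

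The probes behind the ends of this order are shown, since the ratio of a gene is that of its brightest 60-base probe. Each is given with its hg19 position from the array's annotation and its strand. A span longer than the probe crosses a splice junction. All of these are in the sense direction of the mRNA, and RPS28, whose probe ends near the 3′ end of its mRNA, is shown by its first 30 bases.
RPL36, chr19:5691418-5691555, plus strand: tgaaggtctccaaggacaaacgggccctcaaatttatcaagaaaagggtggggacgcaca
RPS28, chr19:8387220-8387279, plus strand, capitals where its second probe differs: ttttgtccgccacacgTaaCtgagatgctc
RPL22L1, chr3:170584204-170584263, minus strand: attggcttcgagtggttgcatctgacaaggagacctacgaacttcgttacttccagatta
RPS25, chr11:118886557-118886616, minus strand: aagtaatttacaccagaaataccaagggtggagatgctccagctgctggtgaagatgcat
RPS21, chr20:60962941-60963394, plus strand: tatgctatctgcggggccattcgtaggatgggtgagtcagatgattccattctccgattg
RPS7, chr2:3627779-3627838, plus strand: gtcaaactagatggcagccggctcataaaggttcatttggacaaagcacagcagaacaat
RPL34, chr4:109546305-109546364, plus strand: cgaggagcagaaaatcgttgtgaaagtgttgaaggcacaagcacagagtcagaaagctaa

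Both subunits had the same median ratio, 0.09. In the large subunit 18 of 50 genes were higher on both arrays and 3 lower, and in the small subunit 12 of 32 were higher and 2 lower. Over all genes the shares were 33.7% higher and 36.1% lower. The quartiles were -0.02 and 0.16 for the large and 0.00 and 0.20 for the small subunit. The ranges overlapped almost wholly.

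Groups within the subunits had medians from -0.01 to 0.25 after loess. Their counts stand beside 33.7% of all genes higher on both arrays, 36.1% lower and 30.3% with opposite signs. The acidic stalk, which recruits elongation factors, is formed by RPLP0, RPLP1 and RPLP2, whose mean ratios were 0.10, -0.00 and -0.00. RPLP0, often used as a reference gene, had ratios of 0.45 and -0.25 (SD 0.49), and 0 of the 3 stalk genes kept its sign on both arrays. RPL5 and RPL11 form the 5S particle, which inhibits MDM2 when it is not built into ribosomes. Their mean ratios were -0.10 (0.05 and -0.25) and 0.07 (0.11 and 0.03). With the dimmest of its 3 measured probes, RPL5 had a mean ratio of 0.31, so its sign depended on the probe. Of 9 proteins around the peptide exit tunnel, 3 were higher on both arrays and 1 lower, with a median of 0.08 and a highest mean of 0.16.

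In the small subunit, 14 genes of the head had a median ratio of 0.11. All 14 were above 0 on array 1 and 6 of them on array 2 as well. The 5 genes of mRNA entry, exit and decoding had a median of 0.25, with 0.47 on array 1 and 0.19 on array 2. Of them RPS28, RPS3 and RPS23 (0.25) were higher on both arrays, while RPS2 (0.53 and -0.30) and RPS26 changed sign by their brightest probes. The 19 genes listed here of Diamond-Blackfan anaemia, an inherited failure of red cell production caused by loss of 1 copy of a ribosomal protein gene, had a median of 0.07. Of them 3 were higher on both arrays, 1 was lower and 15 had opposite signs. Over all genes the shares were 33.7%, 36.1% and 30.3%.

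Several ribosomal proteins have a second form encoded by a paralogue, often with narrow expression in tissues. RPL22 had ratios of 0.05 and 0.12 (mean 0.09), against 0.58 and 0.60 for RPL22L1. These ranges did not overlap, but the dimmer RPL22 probe had 0.73 and 0.53, a range that spans that of RPL22L1. RPL10 had 0.21 and 0.07 (mean 0.14), against 0.42 and 0.48 for RPL10L, a copy without introns known from the testis. RPL3 had 0.46 and 0.06, and RPL3L, the form of striated muscle, had 0.32 and 0.06 at signals of 132 to 182, barely above background. RPL7 had 0.25 and 0.24 against -0.05 and 0.04 for RPL7L1, and RPL26 had 0.23 and -0.02 against 0.04 and 0.09 for RPL26L1. RPS27 had 0.51 and -0.11, and RPS27L, a target of p53, had -0.02 and 0.01. RPL36A had a mean of -0.03 and RPL36AL, which the name rule leaves out, 0.05. RPL39 had a mean of 0.16, and its paralogue RPL39L was not measured. By the brightest probes, the second form was the higher of the pair on both arrays for RPL22 and RPL10. On array 1 this order turned with the dimmer RPL22 probe and with an RPL10 probe of 0.47 and 0.23. The second form was the lower on both for RPL7 and RPL3, for the latter by hardly anything on array 2.

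The probes of RPL10L and RPL10 are alike in sequence. The RPL10L probe and 1 of the RPL10 probes overlap by 36 bases with 3 differing bases, in capitals.
RPL10L, chr14:47120514-47120573, minus strand: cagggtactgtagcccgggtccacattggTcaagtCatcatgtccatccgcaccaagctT
RPL10, chrX:153628866-153628925, plus strand: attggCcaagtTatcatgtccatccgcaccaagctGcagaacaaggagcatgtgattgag
That RPL10 probe had a ratio of 0.35, while the brightest RPL10 probe had 0.14. Whether RPL10 mRNA bound to the RPL10L probe was not tested.

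Such near-identical probes were common among these genes. Of the measured probes, 16 pairs overlapped by at least 20 bases and differed at 1 to 5 bases, and the ratios within a pair differed by a median of 0.05 and by at most 0.19. The pair of RPS29 overlaps by 51 bases with 5 differences, and its ratios were 0.05 and -0.01.
RPS29, chr14:50052719-50053013, minus strand: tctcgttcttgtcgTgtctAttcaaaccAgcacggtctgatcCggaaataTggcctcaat
RPS29, chr14:50052710-50053004, minus strand: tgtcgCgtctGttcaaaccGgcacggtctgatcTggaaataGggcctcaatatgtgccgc
The probes of RPS28, which differ at 2 of 55 shared bases, had ratios of 0.61 and 0.62. Ribosomal protein genes have many processed copies in the genome, and the arrays do not say which copy a probe with such differences measured.

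In 39 genes with 2 or more measured probes, the dimmest probe had a higher ratio than the brightest in 36, by a median of 0.19. On array 1 alone this held for 26 genes, by a median of 0.10, and on array 2 alone for 36, by a median of 0.24. Among 2469 genes that are not ribosomal protein genes, the same was seen in 1571, by a median of 0.07. When median centring replaced loess, the dimmest probe was the higher in 24 of the 39 genes, by a median of 0.03. The difference between dim and bright probes of a gene was thus smaller with median centring than with loess. With the log ratio of the array software, the dimmest probe was the higher in 37 of the 39 genes, by a median of 0.20.

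The probes of 4 genes, RPS29, RPS14, RPL22 and RPS23, differed by more than 0.5. RPS23 is a protein of the decoding center, and its brighter probe at transcript position 217 had ratios of 0.30 and 0.19. Its dimmer probe at position 3103, far downstream in a long form of the mRNA, had ratios of 0.95 and 0.57. RPL22 had 0.05 and 0.12 at position 749 and 0.73 and 0.53 at position 1066. RPS29 had a ratio of -0.01 with its brightest probe, against 0.71 and 0.50 with a probe at position 630 of another transcript, NM_001030001. These downstream or isoform probes were the higher ones on both arrays and were dim, with ALDH+ signals of 2926, 2894 and 2160 on array 1 for RPS23, RPL22 and RPS29. RPS14 had 0.17 and 0.38 with its brightest and dimmest probes and -0.21 with the other probe. RPL28 and RPL15 were noticed after their values were seen: probes at positions 4338 and 1340 had ratios of 0.53 and 0.49, against 0.16 and 0.16 for the brightest probes. Not all probes far downstream were higher: the RPL37 probe at position 1510 had 0.10 against 0.12, and the RPL6 and RPLP0 probes at positions 1007 and 952, the brightest of their genes, had -0.25 and 0.10, against -0.08 and 0.30 for the other probe of each. The first 30 bases of the dim probes are given to show where they lie.
RPS23, chr5:81569290-81569349, minus strand: aaattgtgaaactccctgttgtgttctgta
RPL22, chr1:6246039-6246098, minus strand: acgtgtaagtaatgtttctacaggtctttg
RPS29, chr14:50044074-50044133, minus strand: ctgcacagtgcagaaagtgaatagacagtg
RPL27A, the gene without a measured probe among the common forms, was represented by 1 probe at position 4551 of its transcript, with signals of 63 to 160.

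**Figure D3:**
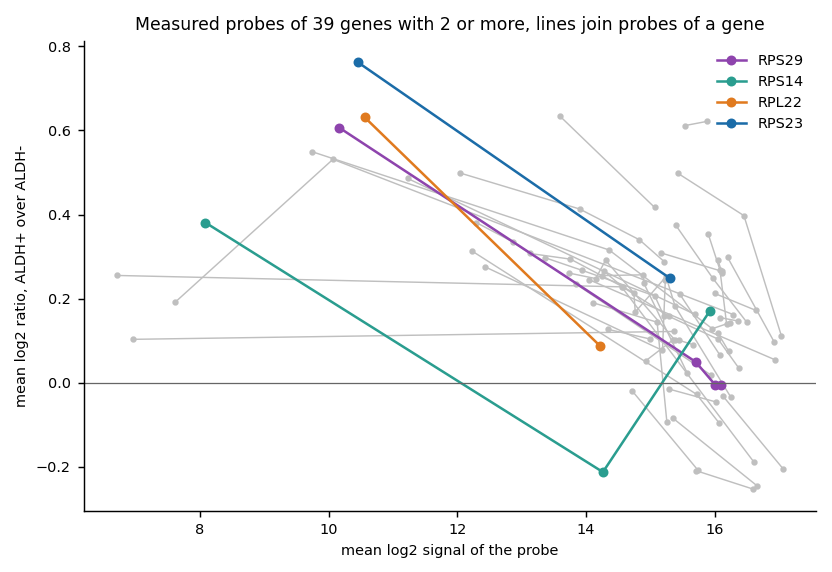
Mean log2 ratio (y axis) against mean log2 signal (x axis) of every measured probe of the 39 genes with 2 or more, with lines joining the probes of a gene and the 4 genes whose probes differ by more than 0.5 in color. In 36 genes the line falls from the dimmest to the brightest probe, and RPS23 falls from 0.76 to 0.25.

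The signals of these probes bear on how far the ratios can be read. Of 273 measured probes with a mean log2 signal above 15, 102 were ribosomal protein probes, and 0 of their spots were saturated. The median spot signal of the 82 genes on array 1 was 134223 in ALDH+ cells and 33417 in ALDH- cells, and on array 2 it was 52957 and 95009. At these signals the loess curve, turned to ALDH+ over ALDH- cells, had a median of 1.79 on array 1 and of -0.81 on array 2, and the mean of both curves, which loess removed, had a median of 0.49. Over all genes the mean removed had a median of 0.06.

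With median centring, which removes 1 value from all probes of an array, the 82 genes had a median of 0.57. All 82 mean ratios were then above 0, in place of 57 after loess, 39 passed 1.5-fold and RPS28 (1.096) and RPL36 (1.04) passed 2-fold. The values of the arrays were 1.71 and -0.61, so that 2 genes were higher on both arrays, beside 8.29% of all genes in this setting. Over all genes, median centring gave a median of 0.07, with 0.56 on array 1 and -0.43 on array 2, and 3.72% of genes past 1.5-fold higher. When the ribosomal protein probes were left out of the loess fit, the median was 0.13, with 32 genes higher on both arrays, 2 lower and the same 3 genes past 1.5-fold. Over all genes the shares in this setting were 34% higher and 35.8% lower on both arrays, and 1.52% past 1.5-fold higher. The log ratio of the array software, which has its own dye correction, gave a median of 0.08, with 0.13 on array 1 and 0.02 on array 2. The size of the group's shift therefore ranged from 0.08 to 0.57 with the normalization. Which value is nearer to the RNA of the cells was not tested.

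**Figure D4:**
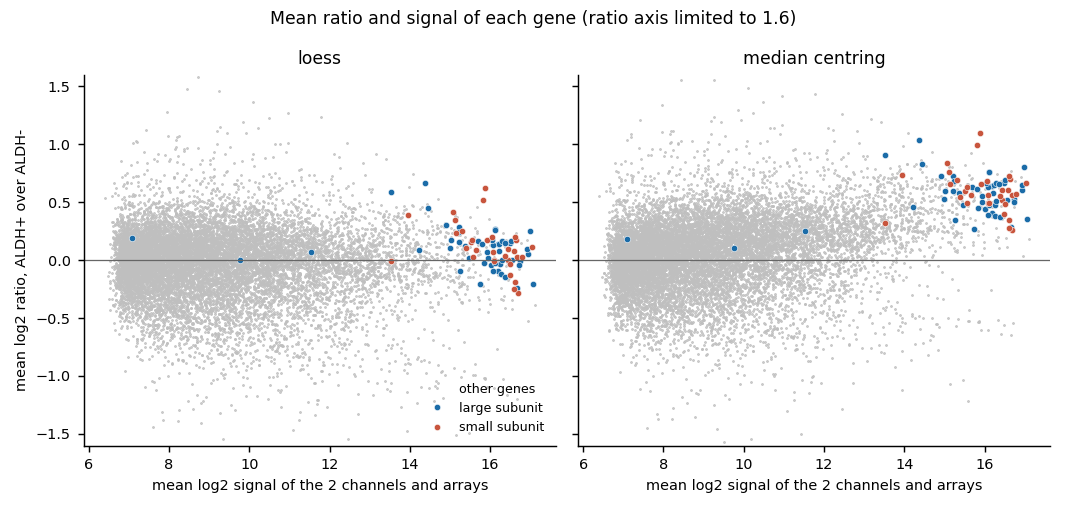
Mean log2 ratio (y axis) against mean log2 signal of both channels and arrays (x axis) for all measured genes, after loess (left) and after median centring (right), with ribosomal protein genes in color. The ribosomal protein genes sit at the bright end with a median of 0.09 after loess and of 0.57 after median centring.

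Ranks were compared for the genes at both ends of the order. Over all alternatives, RPL36 stayed between 0.59 and 1.04 and within ranks 1 to 4, RPS28 between 0.49 and 1.096 within ranks 1 to 5, and RPL22L1 between 0.58 and 0.91 within ranks 2 to 7. RPS15 moved from rank 3 to rank 47. At the low end RPS7 stayed within ranks 76 to 83 and RPL6 within ranks 76 to 82, while RPL23 moved between ranks 34 and 82 and RPS26 between ranks 29 and 80. These ranks share the same 2 arrays. After loess, RPL36, RPS28 and RPL22L1 lay above 0 in both dye orders. The low ratios of RPL23 and RPS26 by their brightest probes came from array 2. That of RPS26 also depended on the probe, at 0.098 (rank 49) with the mean over probes and 0.255 (rank 29) with the dimmest.

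Repeated spots showed how exact a single array was. The probes of RPS6 and RPL30 and the second probe of RPLP0 were each printed 10 times. The SD over the spots was 0.01 and 0.03 for RPS6, 0.04 and 0.06 for RPL30 and 0.03 and 0.05 for RPLP0 on arrays 1 and 2. The ratios of that RPLP0 probe were 0.59 and 0.01. RPL30 had 0.25 and 0.09, and RPS6 had -0.00 and -0.25. The SD over spots was below the difference between the arrays for all 3 probes.

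The starts of the mRNAs were read from RefSeq promoter windows (GRCh38.p14), which were held for 67 of the 84 genes. A start was counted as a TOP start if the annotated first base was C and at least 4 further bases were each C or T, read on the strand of the transcript only. This held for 47 of 67 ribosomal protein genes (70.1%), against 5.14% of the 27305 genes in the table, 10.8% of 74 ribosome assembly genes and 8.82% of 68 mitochondrial ribosomal protein genes. Windows of 30 bases around the start are shown for genes at both ends of the order and for RPS6, with the pyrimidine run in capitals.
RPL36, chr19:5690285-5690314, plus strand: cggcgccagcCCTTCCgccacggccgtctc
RPL22L1, chr3:170870176-170870205, minus strand: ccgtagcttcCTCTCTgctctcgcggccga
RPS21, chr20:62387093-62387122, plus strand: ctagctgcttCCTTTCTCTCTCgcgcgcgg
RPS6, chr9:19380217-19380246, minus strand: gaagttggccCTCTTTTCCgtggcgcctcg
RPS28, chr19:8321486-8321515, plus strand: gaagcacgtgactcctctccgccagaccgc
RPS7, chr2:3575250-3575279, plus strand: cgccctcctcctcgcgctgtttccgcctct
RPL10L, chr14:46651762-46651791, minus strand: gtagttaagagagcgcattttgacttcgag
RPL36 and RPS21, the highest and the lowest gene, both had the run at the annotated start, and RPS28 and RPS7 did not. The 46 measured genes with a TOP start had a median ratio of 0.10 (quartiles -0.00 and 0.17), and the 20 without had 0.01 (quartiles -0.09 and 0.20). The ranges, from -0.28 to 0.66 and from -0.25 to 0.62, overlapped. Annotated starts can differ from those used in these cells.

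Ribosomal proteins whose symbols fall outside the name rule gave similar values. FAU, the precursor of RPS30, had a mean ratio of 0.02 and RPL36AL had 0.05. RACK1, a scaffold on the small subunit that links ribosomes to signaling, had 0.39 and 0.37 (mean 0.38) and lay above both.

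Other parts of the translation apparatus were set beside the ribosomal proteins. Their counts stand beside 33.7% of all genes higher on both arrays and 36.1% lower. Of 8 measured elongation factors, 4 were higher on both arrays and 3 lower, with a median of 0.12. EEF2, which moves the ribosome along the mRNA, had ratios of 0.83 and 0.65 (mean 0.74), and EEF1D had 0.22. EEF2K, the kinase that inhibits EEF2, had -0.35 at dim signals of 262 to 409, and EEF1E1 had -0.34. EEF2 and its inhibiting kinase thus lay on opposite sides of 0, each on both arrays. Of 40 initiation factors, 17 were higher on both arrays and 10 lower, with a median of 0.01, from -0.68 for EIF4G3 and -0.45 for EIF4G1, which are scaffolds of the cap-binding complex, to 0.40 for the helicase EIF4A2 and 0.48 for EIF3F.

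Of 21 other mRNAs known for a TOP start, 12 were higher on both arrays and 3 lower, with a median of 0.14. EEF2 belongs to this list too, followed by HNRNPA1 (0.53), and the lowest were GAS5 (-0.36), a host of small nucleolar RNAs, and PABPC1 (-0.34), the poly(A)-binding protein. Several of these genes are also in the lists of elongation and initiation factors. Of 85 measured genes of ribosome assembly, 25 were higher on both arrays and 30 lower, with a median of -0.01. The highest were the nuclease NOB1 (0.50) and the histone chaperone NPM3 (0.43), and the lowest were UTP20 (-0.60) and DDX52 (-0.53), both of small subunit processing. Of 15 genes of RNA polymerase I and its factors, 6 were higher and 7 lower on both arrays, with a median of -0.09, from TAF1C (-0.62) and POLR1A (-0.27), the largest subunit, to POLR1E (0.32) and POLR1H (0.33). The lists of assembly and of RNA polymerase I held genes of both directions, beside 33.7% higher and 36.1% lower on both arrays over all genes. The medians of both lists lay under that of the ribosomal proteins.

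Among 18 measured genes that control ribosome production, 6 were higher on both arrays and 7 lower, with a median of -0.05. Over all genes the shares were 33.7% higher and 36.1% lower. MTOR, the kinase that couples nutrients to translation of TOP mRNAs, had ratios of -1.10 and -1.29 (mean -1.20) and was more than 2-fold lower in ALDH+ cells. LARP1, which binds TOP mRNAs, had -0.78 and -0.59 (mean -0.68). DDIT4, which restrains mTOR signaling, had 0.28 and was among the highest of this list. Beside these values the TOP mRNAs of the ribosomal proteins had a median of 0.10. Of 76 mitochondrial ribosomal proteins, which form a separate ribosome, 36 were higher on both arrays and 15 lower, with a median of 0.06. They ranged from MRPS16 (-0.89) and MRPS25 (-0.54) to MRPS6 (0.50) and MRPL54 (0.63), although MRPS16 was at 0.078 with its dimmest probe. MRPS25 was dim, with signals of 119 to 230. The medians of the mitochondrial ribosomal proteins on the arrays were 0.07 and 0.10.

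**Figure D5:**
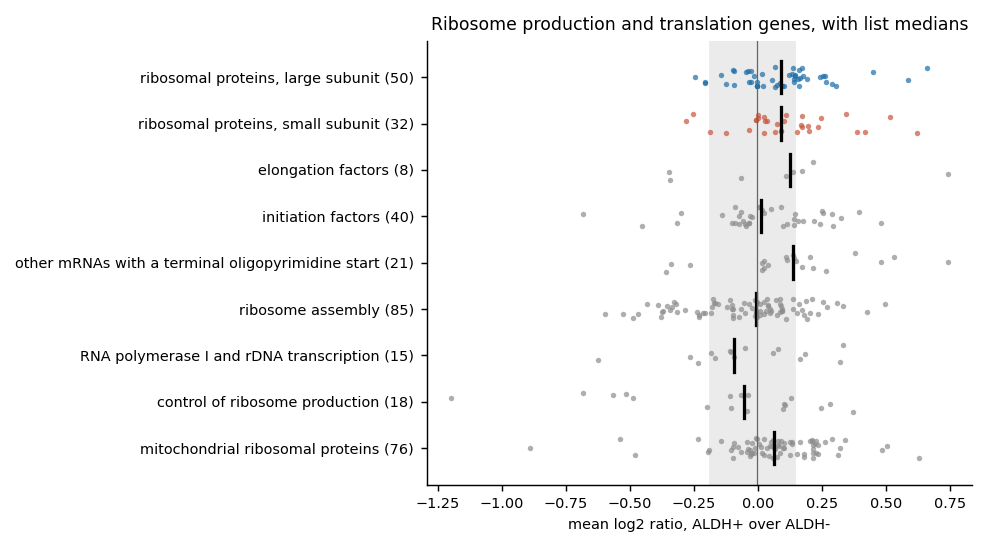
Mean log2 ratio (x axis) of each measured gene as a point, by list (y axis, number of genes in parentheses), with list medians as black bars and the middle 50% of all genes as a gray band around their median. The medians lie between -0.09 for RNA polymerase I and 0.14 for other TOP mRNAs, with 0.09 for both subunits, and MTOR is the point at -1.20.

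All 6 epithelial markers and the clear cell markers PAX8 and NAPSA were measured in these extracts. Of 9 leukocyte markers 3 were measured, of 4 endothelial markers 1 and of 5 fibroblast markers 0. Epithelial markers had a median ratio of 0.02, with a range from -0.30 to 0.13. The part of cell cycle state or cell size in these ratios was not tested.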

How the data were processed

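The authors deposited, for each of the 2 arrays, spot intensities and local backgrounds, not normalized, from Agilent Feature Extraction (10.7.3.1 in the file headers, 8.5.1.1 in the submitters' processing notes). The log10 ratio computed by the software was also deposited, as was a table that joins these ratios, of which 4 columns of signals were not used. Flags of the software were used as given. Mean signals and median local backgrounds were corrected with normexp (offset 50) and normalized by loess within arrays, with control and outlier spots at weight 0, in R 4.3.3 with limma 3.58.1. Spots of a probe were averaged, array 2 was turned to ALDH+ over ALDH- cells, and a gene took the brightest of its measured probes. A probe was measured if, in either population, over 50% of its spots on each array passed the software's flag for well above background. Later steps used Python 3.11.15, numpy 2.4.6 and pandas 2.3.3, and were tested on simulated data.

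Names of other genes came from a RefSeq table (GRCh38.p14), and 157 of 159 ribosomal protein probes matched one of its transcripts. No genome or protein sequence was used here. Genes named were the 8 highest and 8 lowest, those past 1.5-fold, paralogue pairs, stalk and 5S particle genes, genes with probes more than 0.5 apart, genes not measured, and the 2 highest and 2 lowest of each list. Other genes were named after their values were seen. The ribosomal protein genes and all lists were chosen with earlier results of these data known. Precision is limited by the number of arrays and of sorts. A few genes of the lists are not reported here by name.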

Additional observations from a re-analysis of the deposited data

How the results depend on the processing

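Each result was recomputed under 14 alternatives, of which the dimmest probe of a gene was chosen after seeing the data. When median centring replaced loess, the median ratio was 0.57 over all ribosomal protein genes, 0.56 for the large and 0.58 for the small subunit, with 2 genes higher and 0 lower on both arrays, 39 past 1.5-fold higher and 2 past 2-fold higher. Over all genes the shares were then 8.29% higher and 9.02% lower on both arrays, and 3.72% past 1.5-fold higher. The other alternatives moved the medians of the ribosomal protein genes by less than the SD of the arrays. The number of genes lower on both arrays (5) was 14 under no background correction, the log ratio of the software and the joined table. Beside it stood 35.7%, 37.2% and 37.2% of all genes. The number was 3 with the mean over probes and with the dimmest probe, beside 35.5% and 33.7% of all genes. With an offset of 10 and with the ribosomal protein probes at weight 0 in loess it was 2, beside 35% and 35.8%. The number past 1.5-fold higher (3) was 1 under the log ratio of the software and the joined table, beside 4.09% of all genes in both. There the share of the ribosomal protein genes was below that of all genes. With the dimmest probe the number was 7, beside 1.48% of all genes. On array 2 by itself, 2 genes (0 in the mean) were past 1.5-fold lower, beside 5.95% of all genes, and the median was -0.05, against 0.23 on array 1. With the mean over probes these medians were 0.03 on array 2 and 0.28 on array 1, and with the dimmest probe 0.08 and 0.31. For the 36 ribosomal protein genes named, 59 of 504 values moved by more than their SD, 34 of them with median centring, and 54 took the other sign. MRPS16 (-0.89) was 0.078 with its dimmest probe. No paired analysis was possible because each population had 1 sample. Dim probes are limited by background, and bright ones by the dye curve.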

Other observations

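Probes named for processed copies of ribosomal protein genes were left out by the name rule and were listed after their values were seen. Of 19 such genes with a measured probe, 15 were higher in ALDH+ cells on both arrays and 1 was lower, beside 33.7% and 36.1% of all genes. Their median ratio was 0.26, with quartiles of 0.17 and 0.33, and the medians on the arrays were 0.28 and 0.22. The highest were RPS4XP6 (0.54 and 0.41), RPL29P2 (0.42 and 0.52) and RPS2P32 (0.44 and 0.48), and the lowest was RPL23P8 (0.25 and -0.38). By their brightest probes, the genes they were copied from had mean ratios of 0.17 for RPS4X, 0.29 for RPL29, 0.11 for RPS2 and -0.20 for RPL23. With the dimmest measured probe, RPL29 had 0.50, RPS2 had 0.50 and RPL23 had -0.03, so for these parents the gap depended on the probe. RPS4X had 1 probe. Whether these probes measured the copies or the mRNAs of the parent genes was not tested.

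In the list of genes that control ribosome production, 3 more genes were seen after the fact to lie below 0 on both arrays at a similar distance: EIF4EBP1 (-0.62 and -0.51), TSC1 (-0.58 and -0.45) and RPS6KB1 (-0.48 and -0.49), the kinase of RPS6. RPTOR, the partner of MTOR in its complex, had -0.27 and -0.13, and RHEB, which activates that complex, had 0.09 and 0.12.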
